A study of Mus musculus with 9 samples.

Results

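Granzymes, perforin, Nkg7 and interferon gamma were followed in bulk RNA sequencing of 4T1 primary tumors, and the set comprised the 10 genes Gzma, Gzmb, Gzmc, Gzmd, Gzme, Gzmf, Gzmk, Prf1, Nkg7 and Ifng out of 18755 genes in the deposited counts. The genes were chosen by name, as effector molecules of cytotoxic lymphocytes, and were found in the counts by their Entrez identifiers. All 10 passed the filter on low counts and were among the 13966 genes tested. 4T1 is a metastatic murine breast cancer cell line of BALB/c origin, and 1000000 cells were injected into mammary fat pad 9 of female BALB/c mice aged 6 to 10 weeks. From day 15 after injection, mice received 50 mg/kg BI 853520, an inhibitor of focal adhesion kinase (FAK), for 5 days. Others received the vehicle alone, 0.5% Natrosol. The data hold 6 BI 853520 tumors and 3 vehicle tumors. The paper analyzed only tumors whose RNA quality was sufficient, so further mice may have been treated. The hosts were syngeneic and immunocompetent, the tumor cells came from a single cell line, and a piece of each tumor gave 1 library. The tumors are called vehicle 1 to 3 and BI 1 to 6 here. The labels name them as separate samples and give no further detail of the animals, so that all p-values measure the spread between these samples.

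Cytotoxic T cells and natural killer (NK) cells store granzymes and perforin in secretory granules and release them towards a target cell, where perforin forms pores in the membrane and granzymes, a family of serine proteases, cleave proteins inside the cell. Interferon gamma is the cytokine that the same lymphocytes secrete to activate macrophages and antigen presentation. In mammary tumors these transcripts are commonly read as a measure of cytotoxic lymphocytes and of their activity.

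Total counts on genes ranged from 16931607 to 33850245 per tumor with a median of 20972840, and 3 counts, the floor used here, corresponded to between 0.0886 and 0.177 counts scaled to 1000000 in all (CPM). The members had between 21 and 1900 counts in each tumor, all above this floor, which covers counting error only. The largest library was that of vehicle 3. The keratins Krt8 and Krt18 were abundant, at 478 and 579 CPM in vehicle tumors, whereas Epcam was low at 2.13 CPM and the basal keratins Krt14 and Krt5 were below 1 CPM on average. The lymph node genes Fcer2a, Glycam1, Madcam1 and Chst4 were at or under 3 counts in every tumor, whereas Cxcl13 of the same list, a chemokine for B cells, was 3.04 to 8.71 CPM in vehicle and 10.4 to 109 CPM in BI tumors.

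Of the 10 members, 6 were higher after BI 853520 at an adjusted p of at most 0.05 (quasi-likelihood test of edgeR, adjusted by Benjamini-Hochberg over all genes tested), compared with 14.6% of all genes tested. None was lower, compared with 14.1% of all genes, and the median log2 fold change of the members was 1.00, compared with -0.0037 over all genes tested. At the looser cutoff of the study's methods, an unadjusted p of at most 0.05 and a change of at least 1.5-fold, 9 of the 10 members were higher, compared with 9.57% of all genes, and 0 were lower, compared with 3.57%. In 5 members every BI tumor was above every vehicle tumor, an order found in 14.1% of all genes. Gzmb, Prf1 and Nkg7 kept their call whichever tumor was left out. The calls of Gzma, Gzmk and Ifng rested on the small vehicle group: 3 members were higher without vehicle 1, 4 without vehicle 2 and 5 without vehicle 3. Without vehicle 3, Gzma and Gzmk lost their call and Gzme gained one.

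The granzymes fall into separate loci. On the mm9 assembly, Gzma lies at chr13:113884033-113891187 and Gzmk at chr13:113961816-114016116, both on the minus strand. The granzyme B cluster is on chromosome 14, also on the minus strand, with Gzmb at chr14:56877693-56881097, Gzmc at chr14:56850238-56853493, Gzmf at chr14:56824103-56830244, Gzmd at chr14:56748393-56751445 and Gzme at chr14:56736456-56739468. Gzmg, which was not a member, lies within the same cluster at chr14:56775419-56778416. Outside these loci, Prf1 is at chr10:60760584-60767011, Ifng at chr10:117878103-117882948 and Nkg7 at chr7:50692443-50693616, all on the plus strand. In the GENCODE annotation of this assembly, no exon of these genes overlapped an exon of another gene.

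The granzymes of the chromosome 14 cluster are close copies of each other, which bears on how their reads can be assigned. The first 60 coding bases of the cluster genes, from the GENCODE transcripts, are given to show this, with capitals at the bases that differ from Gzmd.
Gzmd: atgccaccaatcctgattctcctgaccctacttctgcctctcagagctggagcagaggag
Gzme: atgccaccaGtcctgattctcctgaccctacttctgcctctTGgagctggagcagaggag
Gzmg: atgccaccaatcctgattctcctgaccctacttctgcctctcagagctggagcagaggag
Gzmf: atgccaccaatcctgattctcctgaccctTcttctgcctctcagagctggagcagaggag
Gzmc: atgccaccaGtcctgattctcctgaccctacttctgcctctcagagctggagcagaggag
Gzmb: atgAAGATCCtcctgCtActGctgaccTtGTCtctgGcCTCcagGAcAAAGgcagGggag

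Over this stretch Gzmg had 0 differences from Gzmd, Gzmf and Gzmc had 1 each, Gzme had 3 and Gzmb had 25. Over the whole coding sequence Gzmd and Gzme were identical at 94.2% of aligned bases, Gzmd and Gzmg at 88.7% and Gzmd and Gzmf at 84.7%, compared with 76.7% between Gzmb and Gzmc and 69.6% between Gzmb and Gzmd. Of all 50-base windows of the transcript, the length of 1 sequenced end, 21.9% had an exact copy in another gene's transcript for Gzmd, 20.5% for Gzme, 19.8% for Gzmg, 7.47% for Gzmf and 3.95% for Gzmc. For Gzmb, Gzma, Gzmk, Prf1, Nkg7 and Ifng the share was 0. The authors kept reads with a single alignment, so reads from such windows are lost unless the other end of the pair is unique, and the counts of Gzmc, Gzmd, Gzme and Gzmf are less certain than those of the other members.

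The promoters of 4 members are given as the 250 bases before the RefSeq transcription start (GRCm38.p6, read on the strand of the gene), to set the 3 of them that rose (Gzmb, Prf1 and Ifng) beside Gzmd, which did not pass the test. Capitals mark matches to TGTGGT, the core letters bound by RUNX factors, or to TGANTCA, the AP-1 letters, on either strand. The T-box letters GGTGTGA were searched as well and had no match in these 4, and Ifng held none of the 3. Matches in the promoters of the members did not overlap one another.
Gzmb, chr14:56262335-56262584, minus strand: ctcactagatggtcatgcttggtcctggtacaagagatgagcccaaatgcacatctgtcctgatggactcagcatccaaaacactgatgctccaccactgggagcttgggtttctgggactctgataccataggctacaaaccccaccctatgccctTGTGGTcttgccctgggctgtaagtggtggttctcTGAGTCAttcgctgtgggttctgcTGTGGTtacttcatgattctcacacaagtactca
Gzmd, chr14:56132594-56132843, minus strand: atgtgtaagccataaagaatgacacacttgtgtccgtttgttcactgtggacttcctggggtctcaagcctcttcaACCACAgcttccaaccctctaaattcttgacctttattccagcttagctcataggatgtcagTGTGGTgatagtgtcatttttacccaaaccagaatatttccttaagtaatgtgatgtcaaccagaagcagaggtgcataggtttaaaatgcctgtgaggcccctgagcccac
Prf1, chr10:61297586-61297835, plus strand: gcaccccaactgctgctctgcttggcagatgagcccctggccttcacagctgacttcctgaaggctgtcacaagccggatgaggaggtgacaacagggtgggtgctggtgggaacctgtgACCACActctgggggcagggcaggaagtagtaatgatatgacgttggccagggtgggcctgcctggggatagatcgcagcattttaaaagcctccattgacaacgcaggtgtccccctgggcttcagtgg
Ifng, chr10:118440796-118441045, plus strand: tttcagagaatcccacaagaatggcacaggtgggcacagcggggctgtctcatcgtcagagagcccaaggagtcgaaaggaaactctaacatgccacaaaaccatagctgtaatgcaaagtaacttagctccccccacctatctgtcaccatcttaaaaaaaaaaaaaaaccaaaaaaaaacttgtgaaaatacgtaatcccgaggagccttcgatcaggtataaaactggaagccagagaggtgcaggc

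The RUNX letters were present in 8 of the 10 member promoters (Gzma, Gzmb, Gzmc, Gzmd, Gzme, Gzmf, Nkg7 and Prf1), compared with 4614 of 32851 RefSeq promoters of the same length. The promoters of the chromosome 14 cluster are related by descent and are not independent of each other in this count. The T-box letters were present in 2 member promoters (Gzmk and Nkg7) and in 3.33% of all promoters. The AP-1 letters were present in 1 (Gzmb) and in 6.75% of all, the STAT letters TTCNNNGAA in 2 (Ifng and Nkg7) and in 7.02% of all, and the NFAT letters GGAAAA in 1 (Gzma) and in 20.4% of all. These are matches of letters, with no measurement of binding.

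Gzmb, which encodes granzyme B, the protease that activates caspases in target cells, was the most abundant member and had the smallest p. It measured 30.6, 21.0 and 28.4 CPM in vehicle 1 to 3 and 78.1, 65.5, 51.0, 85.4, 76.9 and 70.0 CPM in BI 1 to 6. The lowest BI tumor, BI 3, was above the highest vehicle tumor, and the BI tumors differed among themselves by 1.68-fold. The mean was 26.7 ± 5.00 CPM in vehicle tumors (SD, n = 3) and 71.2 ± 12.0 CPM in BI tumors (SD, n = 6). The log2 fold change was 1.42 (SE 0.160), with an adjusted p of 0.000103 by edgeR's quasi-likelihood test and a p of 0.0238 in the two-sided exact permutation test of log2 CPM, the smallest that the 84 divisions of the 9 tumors can give. In bulk tumors, more cells of a type and more RNA per cell cannot be told apart, and this holds for every member.

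Gzma encodes granzyme A, a tryptase of the same granules. It measured 1.74, 2.59 and 2.03 CPM in vehicle 1 to 3 and 7.37, 4.90, 3.19, 4.54, 2.68 and 4.46 CPM in BI 1 to 6. The groups did not overlap, but BI 5 exceeded vehicle 2 by little. The log2 fold change was 1.10 (SE 0.295, adjusted p = 0.0164, edgeR's quasi-likelihood test), and the adjusted p was 0.0711 without vehicle 1 and 0.0675 without vehicle 3. Gzmk, the neighboring tryptase granzyme on chromosome 13, is known from memory and effector memory CD8 T cells. It was at 1.15, 0.939 and 1.03 CPM in vehicle tumors and at 1.42, 3.34, 3.86, 3.15, 1.26 and 2.15 CPM in BI tumors, resting on 21 to 80 counts per library. BI 1 and BI 5 lay just above the vehicle tumors, and the other 4 BI tumors were further above. The log2 fold change was 1.29 (SE 0.369, adjusted p = 0.0223), and the adjusted p was 0.0582, 0.0745 and 0.0790 when vehicle 1, 2 or 3 was left out.

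Gzmc, Gzmd, Gzme and Gzmf encode the further granzymes of the cluster, which are expressed by strongly activated cytotoxic lymphocytes of the mouse. Gzmc measured 13.98, 7.65 and 14.1 CPM in vehicle 1 to 3 and 30.6, 12.7, 9.90, 19.9, 29.7 and 18.1 CPM in BI 1 to 6. Gzmf was at 12.9, 8.10 and 12.3 CPM in vehicle tumors and at 26.3, 17.2, 15.1, 10.03, 30.2 and 16.9 CPM in BI tumors. In both genes BI 1 and BI 5 were highest and the groups overlapped, with 4 BI tumors above all vehicle tumors for Gzmc and 5 for Gzmf. Gzmd measured 8.02, 6.26 and 12.2 CPM in vehicle tumors and 17.9, 10.7, 11.4, 5.76, 18.5 and 9.45 CPM in BI tumors. Gzme measured 5.46, 5.46 and 9.69 CPM in vehicle tumors and 10.02, 8.71, 15.4, 10.8, 15.1 and 5.97 CPM in BI tumors. For Gzmd only BI 1 and BI 5 exceeded vehicle 3, and BI 4 lay below all vehicle tumors. For Gzme, BI 2 and BI 6 stayed under vehicle 3.

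None of these 4 passed the adjusted threshold. Their log2 fold changes were 0.75 for Gzmc (SE 0.338, adjusted p = 0.116, edgeR's quasi-likelihood test), 0.46 for Gzmd (SE 0.326, adjusted p = 0.312), 0.66 for Gzme (SE 0.287, adjusted p = 0.103) and 0.79 for Gzmf (SE 0.297, adjusted p = 0.0663). Gzmc passed without BI 3 (adjusted p = 0.0394), Gzme without vehicle 3 (0.04996) or without BI 6 (0.0342), and Gzmf without BI 4 (0.0207). The reads of Gzmc, Gzmd, Gzme, Gzmf and Gzmg were also summed to 1 gene, which was added after seeing the data. Summing keeps reads exchanged among these copies together but cannot bring back reads lost for want of a single alignment. Gzmn, a further granzyme of the cluster that shares windows with Gzmd, Gzme and Gzmg, was not in the counts. The sum was 43.7, 32.3 and 54.5 CPM in vehicle 1 to 3. It was 99.4, 56.1, 58.2, 49.3, 103 and 56.2 CPM in BI 1 to 6. BI 1 and BI 5 stood well above all other tumors, and BI 4 lay below vehicle 3. For the sum the log2 fold change was 0.69 (SE 0.254, adjusted p = 0.0613, edgeR's quasi-likelihood test), and the adjusted p was 0.0441 without BI 4.

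**Figure D1:**
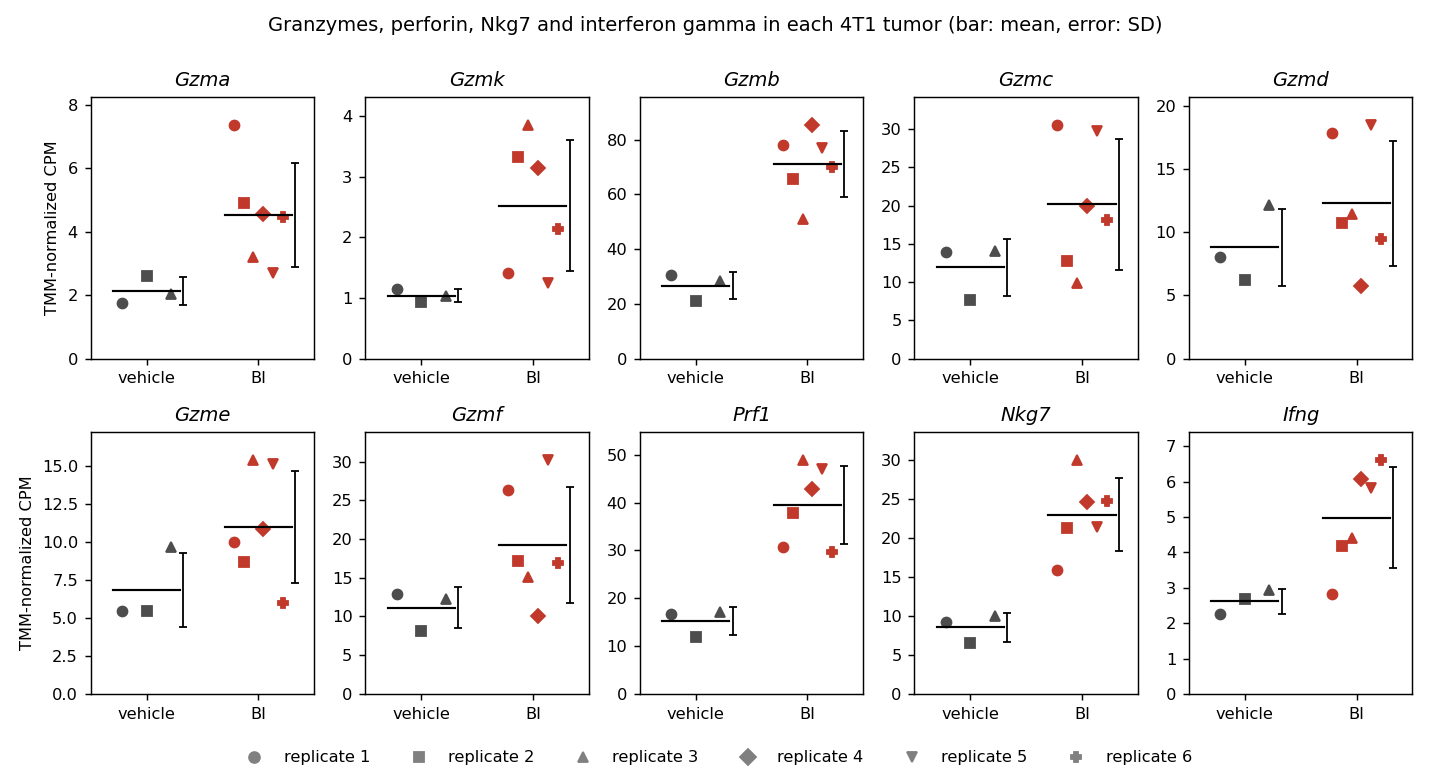
TMM-normalized CPM (y axis, linear, from 0) of each of the 10 members in the 3 vehicle tumors (gray) and the 6 BI 853520 tumors (red); symbols mark the replicate, horizontal bars the group mean and error bars the SD. Gzma, Gzmk, Gzmb, Prf1 and Nkg7 show no overlap between the groups, whereas Gzmc, Gzmd, Gzme, Gzmf and Ifng do.

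Prf1 encodes perforin, the pore-forming protein that lets granzymes reach the cytosol. It measured 16.8, 11.8 and 17.2 CPM in vehicle 1 to 3 and 30.8, 37.9, 48.9, 42.8, 47.1 and 29.6 CPM in BI 1 to 6. BI 6, the lowest BI tumor, was above the highest vehicle tumor. The mean rose from 15.3 ± 2.99 CPM (SD, n = 3) to 39.5 ± 8.15 CPM (SD, n = 6), with a log2 fold change of 1.37 (SE 0.183, adjusted p = 0.000284, edgeR's quasi-likelihood test). Nkg7 encodes a membrane protein of cytotoxic granules that takes part in their release. Nkg7 was at 9.21, 6.49 and 10.02 CPM in vehicle tumors and at 15.9, 21.2, 30.0, 24.6, 21.5 and 24.8 CPM in BI tumors. The groups were again apart, with BI 1 the lowest and BI 3 the highest of the treated tumors. Nkg7 had a log2 fold change of 1.42 (SE 0.191, adjusted p = 0.000296). Within a tumor, log2 CPM of Prf1 minus that of Nkg7 averaged 0.83 in vehicle and 0.78 in BI tumors, a difference of -0.05 with p = 0.857 in a two-sided exact permutation test.

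Ifng measured 2.25, 2.68 and 2.95 CPM in vehicle 1 to 3 and 2.83, 4.17, 4.39, 6.07, 5.82 and 6.61 CPM in BI 1 to 6. BI 1 lay between vehicle 2 and vehicle 3, and the other 5 BI tumors were above all vehicle tumors. The log2 fold change was 0.91 (SE 0.251, adjusted p = 0.0183, edgeR's quasi-likelihood test), and the p of the two-sided exact permutation test was 0.0476. The adjusted p was 0.0763 without vehicle 1 and 0.0524 without vehicle 2.

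The treated tumors were not ordered alike in all members. BI 1 ranked first of the 6 BI tumors for Gzma and Gzmc and last for Nkg7 and Ifng, and it also ranked first for the NK cell receptors Ncr1 and Klrb1c and last for the T cell genes Cd3e and Cd8a. BI 3 ranked first for Gzmk, Gzme, Prf1, Nkg7 and Cd8a and last for Gzmb, Gzmc, Ncr1 and Klrb1c. BI 6 ranked first for Ifng and Cd3e and last for Gzme and Prf1. These ranks describe single tumors and carry no test. Ncr1 and Klrb1c were named after their ranks were seen, and other NK cell markers were ordered otherwise. BI 1 was the lowest BI tumor for Klrk1, Klrd1 and Klrc1, and BI 3 was the highest for Klre1.

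Levels of different genes were compared as CPM per kb of the deposited gene length. On this scale the order of the granzymes in vehicle tumors was Gzmb (18.8 ± 3.53, SD, n = 3), Gzmc (12.7 ± 3.95), Gzmf (12.2 ± 2.89), Gzmd (9.41 ± 3.24), Gzme (7.44 ± 2.65), Gzmg (5.27 ± 1.60), Gzma (2.42 ± 0.494), Gzmk (1.31 ± 0.131) and Gzmm (0.214 ± 0.0874). Neighbors from Gzmc to Gzmg differed by less than the larger of their SDs. In BI tumors Gzmb reached 50.3 ± 8.50 CPM per kb (SD, n = 6), followed by Gzmc at 21.6 ± 9.13 and Gzmf at 21.2 ± 8.25, and Gzma and Gzmk reached 5.15 ± 1.87 and 3.19 ± 1.36. The other effectors were at 7.43 CPM per kb for Prf1, 10.5 for Nkg7 and 2.18 for Ifng in vehicle tumors, and at 19.2, 28.3 and 4.13 in BI tumors. The deposited length of Gzmk was 792 bases, equal to that of its coding sequence, so that its level per kb refers to coding length. Gzmm, a granzyme of NK cells, did not pass the filter on low counts.

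The summed level of the 9 granzymes was between 54.3 and 82.7 CPM per kb in vehicle tumors and between 108 and 173 CPM per kb in BI tumors. Gzmb made up 24.2% to 29.8% of this sum in vehicle tumors and 31.8% to 49.0% in BI tumors, with no overlap. The share of Gzmd was between 11.8% and 15.7% in vehicle tumors and between 4.99% and 11.6% in BI tumors, also without overlap. The shares of the remaining 7 granzymes overlapped between the groups. Log2 CPM of Gzmb minus the mean log2 CPM of Gzmc, Gzmd, Gzme and Gzmf was 1.51 ± 0.241 in vehicle tumors (SD, n = 3) and 2.30 ± 0.462 in BI tumors (SD, n = 6). This difference of 0.79 had a p of 0.0238 in a two-sided exact permutation test, the smallest possible. It was 1 of 5 comparisons between genes added after seeing the data, and its Benjamini-Hochberg adjusted value over the 5 was 0.0595. The difference between Gzmb and Gzma changed by 0.41 (exact permutation test, p = 0.31, two-sided), and that between Gzmb and Prf1 changed by 0.05 (exact permutation test, p = 0.857).

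**Figure D2:**
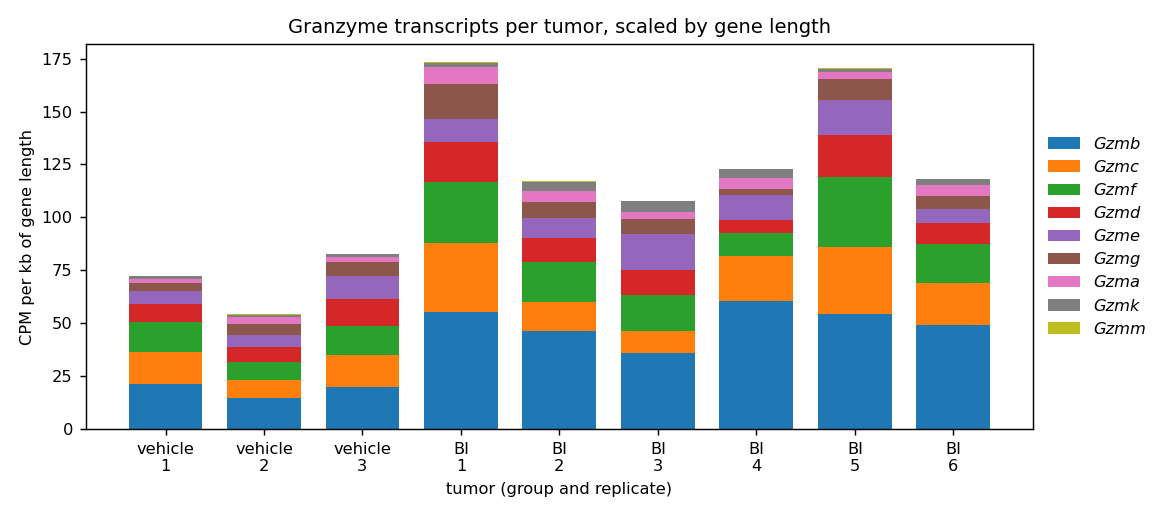
CPM per kb of gene length (y axis, linear, from 0) of 9 granzymes, stacked for each of the 3 vehicle and 6 BI 853520 tumors. The stacks reach at most 82.7 in vehicle and at least 108 in BI tumors, and the Gzmb segment makes up 31.8% to 49.0% of each BI stack.

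The members were then set against lymphocyte transcripts. T cell markers (9 genes tested) had 8 genes higher and 0 lower with a median log2 fold change of 1.14. NK cell markers (6 genes tested) had 6 higher with a median of 1.23. The shares over all genes tested were 14.6% higher and 14.1% lower. Cd3e, a subunit of the T cell receptor complex, was 12.5 ± 0.444 CPM in vehicle tumors (SD, n = 3) and 27.6 ± 4.10 CPM in BI tumors (SD, n = 6). Cd8a, the co-receptor of cytotoxic T cells, was 17.5 ± 2.65 and 41.3 ± 8.67 CPM. Summed CPM of the T cell list was between 66.0 and 70.5 in vehicle and between 117 and 170 in BI tumors, and that of the NK cell list was between 18.2 and 24.2 and between 44.5 and 58.7. Both lists were higher in BI tumors, as were the members that passed the test, although the single BI tumors were not ordered alike. The T cell marker not called was Cd4 (log2 fold change 0.39, adjusted p = 0.192, edgeR's quasi-likelihood test). A lymphocyte score was formed from 10 of these genes, Cd3d, Cd3e, Cd3g, Cd247, Cd8a, Cd8b1, Ncr1, Klrb1c, Klrk1 and Klrd1. Their log2 fold changes lay between 1.08 (Cd3g) and 1.28 (Ncr1). Of the T cell markers left out, Cd2 rose by 1.16, Cd5 by 0.66 and Cd4 by 0.39. The NK cell markers left out, Klrc1 and Klre1, rose by 1.11 and 1.28. A score with Cd4 and Cd5 was not tested. The score, the mean log2 CPM of the 10 genes, was between 2.37 and 2.69 in vehicle tumors and between 3.53 and 3.95 in BI tumors.

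When each tumor was scaled by this lymphocyte score, the log2 fold changes of the members lay between -0.61 and 0.29, with a median of -0.16, compared with -1.15 for all genes tested. They were 0.29 for Gzmb, 0.28 for Nkg7, 0.25 for Prf1, 0.13 for Gzmk, -0.06 for Gzma, -0.25 for Ifng, -0.29 for Gzmf, -0.33 for Gzmc, -0.44 for Gzme and -0.61 for Gzmd. No member was higher at an adjusted p of at most 0.05 (background 0.501% of genes), with an adjusted p of 0.0766 for Gzmb, and 2 were lower, Gzmd (adjusted p = 0.00212, edgeR's quasi-likelihood test) and Gzme (0.0291), compared with 89.6% of all genes. This test takes the score as known without error. In the exact permutation test of log2 CPM minus the score, added after seeing the data, the groups overlapped for all 10 members and the two-sided p was between 0.167 and 0.952, with 0.167 for Gzmd and 0.238 for Gzme. The adjusted p of Gzmd was 0.133 and that of Gzme 0.529 without vehicle 3. The number lower was 0 without vehicle 3, 1 without BI 2, BI 4 or BI 6 and 4 without BI 1 or BI 5. Gzmb was called higher without BI 3 (adjusted p = 0.0381), and Gzmb and Prf1 were called higher without BI 6. Scaled by the pan-leukocyte gene Ptprc alone, which was 0.73 higher on the log2 scale after BI 853520, Gzmb, Prf1 and Nkg7 remained higher, by 0.70, 0.67 and 0.70 (adjusted p = 0.000126, 0.00131 and 0.000596).

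**Figure D3:**
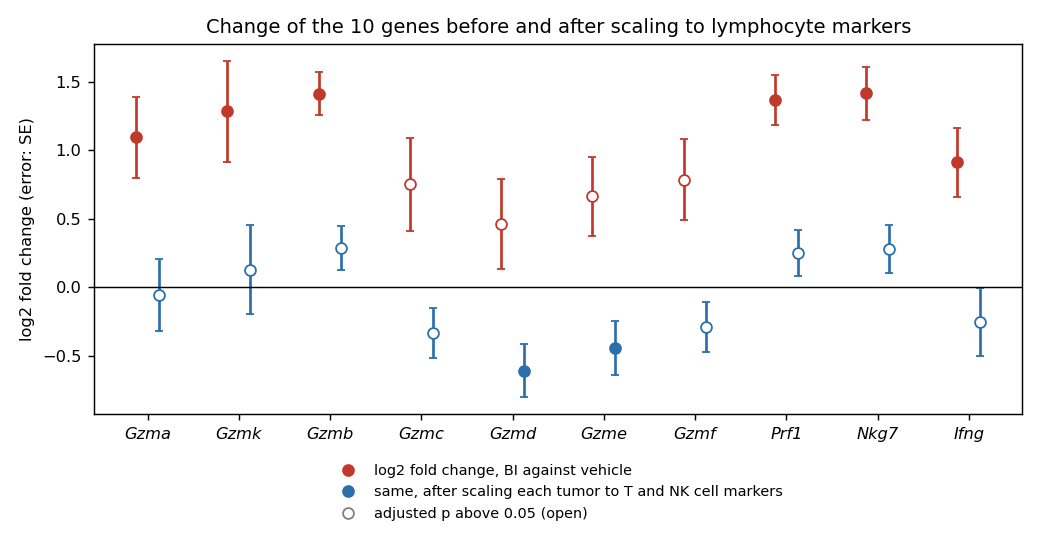
Log2 fold change of BI 853520 against vehicle (y axis) of each member before scaling (red) and after scaling each tumor to 10 T and NK cell genes (blue), with SE as error bars. Filled points have an adjusted p of at most 0.05 in edgeR's quasi-likelihood test; 6 are filled before scaling and, below 0, Gzmd and Gzme after it, neither of which passed an exact permutation test.

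Markers of other cell types changed as well, in both directions. All 6 macrophage markers were higher (summed CPM 1368 to 1813 in vehicle and 2632 to 3342 in BI tumors), 3 of 5 neutrophil markers were lower (1064 to 1225 and 361 to 827), and 2 of 6 epithelial markers were lower (953 to 1176 and 747 to 955). Among mast cell markers 3 of 6 were higher and 1 was lower, with summed CPM from 71.2 to 77.7 and from 67.7 to 171. Of the dendritic cell markers 3 of 5 were higher (15.5 to 18.8 and 22.2 to 37.1), and of the B cell markers 2 of 4 (4.52 to 8.02 and 5.80 to 11.2). The shares over all genes tested were 14.6% higher and 14.1% lower. Of the lymph node list only Cxcl13 passed the filter on low counts, and it rose by 3.05 on the log2 scale (SE 0.722, adjusted p = 0.00877, edgeR's quasi-likelihood test), with every BI tumor above every vehicle tumor. The part of these cell types and markers in the change of the members was not tested.

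The chromosome 14 locus continues beyond Gzme with proteases of other leukocytes, Ctsg, Mcpt8, Mcpt4, Mcpt2, Mcpt1 and Cma1. Among 10 other leukocyte serine proteases tested, 5 were higher and 0 lower, compared with 14.6% and 14.1% of all genes tested. Their median log2 fold change after BI 853520 was 2.24. Cma1, a mast cell chymase, went from 3.67 ± 1.66 CPM (SD, n = 3) to 30.8 ± 22.8 CPM (SD, n = 6), with a log2 fold change of 3.10 (adjusted p = 0.00576, edgeR's quasi-likelihood test). Mcpt4, also a chymase, and Tpsb2, a mast cell tryptase encoded elsewhere, rose by 3.26 (adjusted p = 0.00649) and 3.25 (adjusted p = 0.00631), and the adjusted p of Mcpt4 was 0.0537 with limma-voom. The BI tumors ranged from 6.16 to 66.5 CPM for Cma1, a wider spread than the 51.0 to 85.4 CPM of Gzmb. Mcpt8, a protease of basophils and the most abundant of this list per kb in vehicle tumors, had a log2 fold change of 0.35 (adjusted p = 0.232). Between these genes and Gzmb, Gzmg had a log2 fold change of 0.64 (SE 0.400, adjusted p = 0.251).

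**Figure D4:**
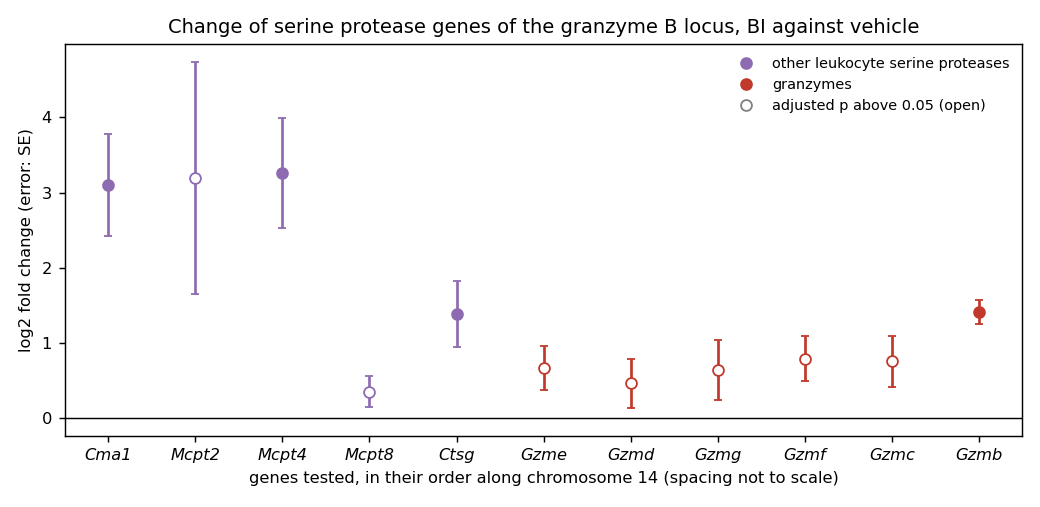
Log2 fold change of BI 853520 against vehicle (y axis, error bars SE) for the serine protease genes tested at the granzyme B locus, in their order along the chromosome with spacing not to scale. Gzmb at one end and Ctsg, Mcpt4 and Cma1 towards the other are filled (adjusted p of at most 0.05), while Gzme, Gzmd, Gzmg, Gzmf and Gzmc between them are open.

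Of the 9 genes that process, store or inhibit granzymes, 4 were higher and 0 lower, compared with 14.6% and 14.1% of all genes tested. Their median log2 fold change was 0.18. Ctsc, the cathepsin that removes the activation peptide of granzymes, was 563 ± 52.7 CPM in vehicle (SD, n = 3) and 1029 ± 97.5 CPM in BI tumors (SD, n = 6), with a log2 fold change of 0.87 (adjusted p = 7.57e-05, edgeR's quasi-likelihood test). Cst7, which encodes cystatin F, an inhibitor of cathepsin C in cytotoxic cells, rose by 1.08 (adjusted p = 5.94e-05), and Ctsw, cathepsin W of cytotoxic lymphocytes, by 1.31 (adjusted p = 0.000371). Srgn, the granule proteoglycan serglycin that binds granzymes and the most abundant gene of the list per kb, was 532 ± 89.7 and 496 ± 61.8 CPM, a log2 fold change of -0.10 (adjusted p = 0.555). Serpinb9, which encodes an inhibitor of granzyme B and was singled out after its values were seen, was 62.6 ± 4.68 and 64.2 ± 2.06 CPM (log2 fold change 0.03, SE 0.0592, adjusted p = 0.695). Log2 CPM of Gzmb minus that of Serpinb9 was -1.24 in vehicle and 0.13 in BI tumors without overlap, a difference of 1.38 (two-sided exact permutation test, p = 0.0238, and 0.0595 after adjustment over the 5 comparisons). Since Serpinb9 hardly changed, this difference largely repeats the rise of Gzmb and is not a separate result.

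Of 8 granule exocytosis genes, 2 were higher and 1 lower, compared with 14.6% and 14.1% of all genes tested. Their median log2 fold change was 0.02. Rab27a, a small GTPase needed for docking of lytic granules, rose by 0.56 (adjusted p = 0.00183, edgeR's quasi-likelihood test), whereas Stx11, a syntaxin needed for their fusion, fell by 0.51 on the log2 scale (adjusted p = 0.0031). Vamp8, the most abundant of the list per kb, rose by 0.27 (adjusted p = 0.044), and its adjusted p was up to 0.186 with a tumor left out (without vehicle 3). It was also above 0.05 without vehicle 1, BI 1, BI 4 or BI 6.

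Of 9 transcription factors of cytotoxic lymphocytes, 5 were higher and 0 lower, compared with 14.6% and 14.1% of all genes tested. Their median log2 fold change was 0.50. Tbx21, which encodes T-bet, an activator of Ifng, was 1.46 ± 0.126 CPM in vehicle (SD, n = 3) and 4.43 ± 1.00 CPM in BI tumors (SD, n = 6). Its log2 fold change of 1.60 (adjusted p = 0.000339, edgeR's quasi-likelihood test) was the largest among these factors. Prdm1, which encodes Blimp-1, rose by 0.77 (adjusted p = 0.0055) and Id2 by 0.71 (adjusted p = 0.000421).

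Of 14 tested genes for cytokines and receptors that induce the members, 6 were higher and 0 lower, beside 14.6% and 14.1% of all genes. Their median log2 fold change was 0.50. Il2rb, the receptor chain shared by interleukin 2 and interleukin 15, was 17.1 ± 2.11 CPM in vehicle (SD, n = 3) and 39.3 ± 5.03 CPM in BI tumors (SD, n = 6), a log2 fold change of 1.19 (adjusted p = 5.4e-05, edgeR's quasi-likelihood test). Il18r1, the interleukin 18 receptor, rose by 0.90 (adjusted p = 0.00222) and Il21r, the interleukin 21 receptor, by 0.87 (adjusted p = 0.000419). The common gamma chain Il2rg rose by 0.22 (adjusted p = 0.0447), a call that was lost without any 1 of the 3 vehicle tumors or of BI 2, BI 4, BI 5 and BI 6, with an adjusted p up to 0.171. Il2 was at or under 3 counts in every tumor.

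Genes of interferon gamma signaling and its targets were called at shares close to those of all genes tested, 14.6% higher and 14.1% lower. Of 8 genes for the interferon gamma receptor and its signaling, 1 was higher and 1 lower, with a median of 0.07. Ifngr1, the ligand-binding receptor chain, rose by 0.51 (adjusted p = 0.0012, edgeR's quasi-likelihood test), and Jak2, a kinase of the receptor, fell by 0.41 (adjusted p = 0.00102). Of 16 target genes, 2 were higher and 2 lower, with a median of 0.16. Ciita, the activator of MHC class II genes, rose by 1.14 (adjusted p = 0.000749), and Cxcl9, a chemokine for activated T cells, rose by 0.76 (adjusted p = 0.0031), from 179 ± 32.0 to 302 ± 51.6 CPM. Nos2, which encodes inducible nitric oxide synthase, fell by 0.61 (adjusted p = 0.00815). Psmb8, a subunit of the immunoproteasome and the most abundant target per kb, had a log2 fold change of 0.16 (adjusted p = 0.0886). Ido1, which degrades tryptophan, was 4.56 ± 1.03 and 3.15 ± 0.529 CPM (log2 fold change -0.54, adjusted p = 0.0485), and its call was lost without any 1 tumor other than vehicle 2 and BI 2, with an adjusted p up to 0.226.

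Of 10 other death ligands, receptors and chemokines of cytotoxic lymphocytes, 3 were higher and 1 lower, with a median of 0.42. Ccl5, a chemokine of cytotoxic lymphocytes, rose by 1.10 (adjusted p = 0.000742, edgeR's quasi-likelihood test) and Fasl, the death ligand that engages Fas, by 0.93 (adjusted p = 0.00365). Tnfrsf10b, the receptor of the death ligand TRAIL, fell by 0.69 (adjusted p = 4.36e-05), from 28.1 ± 0.772 CPM in vehicle (SD, n = 3) to 17.5 ± 0.849 CPM in BI tumors (SD, n = 6). Over all 9 lists of genes around the members, 28 of 85 genes tested were higher and 5 lower, beside 14.6% and 14.1% of all genes tested.

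**Figure D5:**
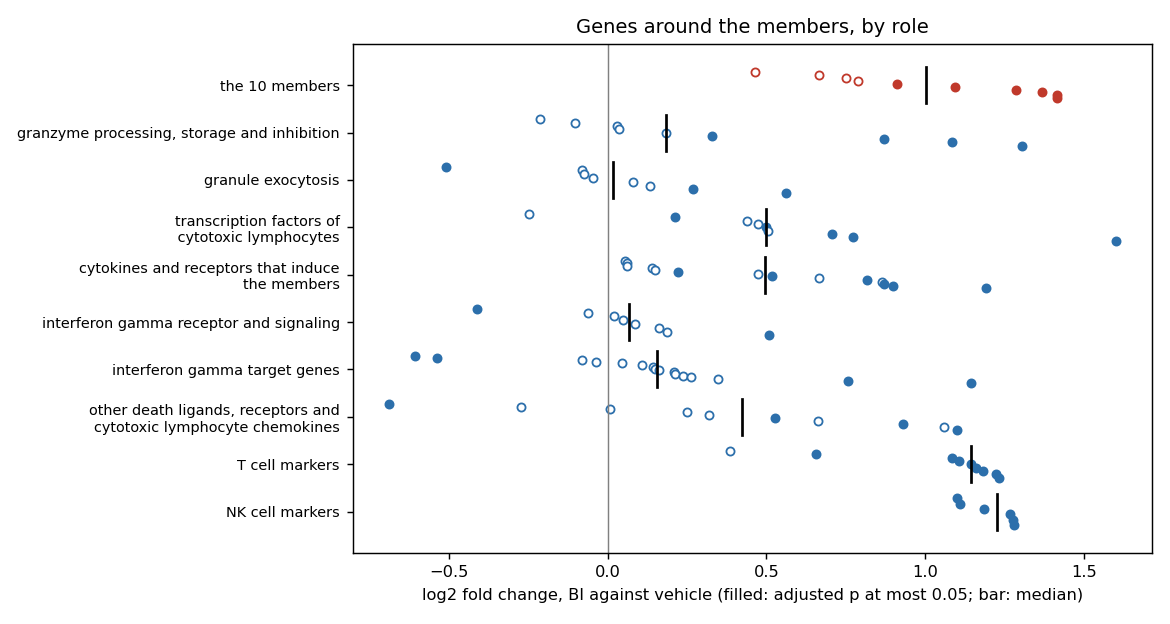
Log2 fold change of BI 853520 against vehicle (x axis) of the 10 members (red) and of the genes of 7 lists of related roles and 2 marker lists (blue); each point is a gene, filled where the adjusted p is at most 0.05, and black bars are medians. The members' median is 1.00, those of the T and NK cell markers are 1.14 and 1.23, and those of the interferon gamma signaling and target genes are 0.07 and 0.16.

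As a description over the 9 tumors, which share the treatment, the genes whose log2 CPM was most like that of Gzmb among 12973 genes were Fyn (Pearson's r = 0.983), Apba1 (0.981), Sash1 (0.978), Shtn1 (0.978) and Slamf8 (0.978). Those most like Ifng were Itih5 (0.967), Fxyd1 (0.962), Crabp2 (0.950), Dpp4 (0.945) and Vcp (0.945). No gene was among the 5 of both.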

How the data were processed

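Per the labels and the study's methods, messenger RNA of 9 tumors was sequenced as 50-base read pairs from a stranded library. The authors aligned the reads to mm9 with STAR, keeping single alignments, and deposited the raw counts of reads starting in RefSeq exons, made with QuasR, together with gene lengths, for 18755 genes. Whether counting used the strand or both mates was not given in the sources used here. Symbols came from RefSeq (18700 genes).

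After removal of low counts by filterByExpr (minimum count 10, minimum total 15) and scaling by TMM, the counts of the 6 BI 853520 and 3 vehicle tumors were fitted in edgeR 4.0.16 (R 4.3.3) without covariates and compared by its two-sided quasi-likelihood test, and p-values were adjusted by Benjamini-Hochberg over 13966 genes. In a second fit the offset of each tumor was raised by the mean log2 CPM of 10 T and NK cell genes. All CPM are scaled by TMM, with 2 as the prior count for logarithms. Single values were compared by exact permutation over 84 divisions. The script was tested on simulated data. Alternatives were RLE size factors, library size only, no filter, a filter of 1 CPM in 3 tumors, DESeq2 1.42.0, limma-voom (limma 3.58.1), the likelihood ratio test, other marker scales and leaving out each tumor in turn. Coding sequences were aligned with Biopython 1.88.

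The members, the lists and the rule for names were chosen with earlier results of these data known. The rule names, for each list of roles, the 3 genes with the smallest p, the most abundant per kb and any called against the majority, and for markers the 2 most abundant; exceptions are marked in the text, and 1 gene that the rule names is not reported here. Of 91 list entries 89 were in the counts, and Gzmn and Zfp683 were not analysed here. Of 60 marker entries 55 were in the counts.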

Additional observations from a re-analysis of the deposited data

Results flagged for a closer look

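In a check of the 6 BI tumors for a value far from the others, 2 of 59 genes stood out, and chance alone gives about 1 in 20 such groups. The 59 were the 10 members and the genes named by the rule. Xcr1, a receptor of cross-presenting dendritic cells, was at 11.2 CPM in BI 2. Cxcl13, a chemokine for B cells, was at 109 CPM in BI 6, and the other 5 BI tumors, from 10.4 CPM upwards, were also above all vehicle tumors. Genes of the lists outside the 59 stood out as well. Among them were Epcam (10.3 CPM), Krt14 (1.33 CPM) and Krt5 (1.68 CPM) in BI 6, Mcpt1 and Mcpt2 in BI 1 and Cd5 in BI 4. None of the 10 granzyme, perforin, Nkg7 and interferon gamma genes stood out in this way.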

How the results depend on the processing

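The number of members higher was 6, and between 3 (without vehicle 1) and 7 when a tumor was left out; it was 9 at an unadjusted p of at most 0.05 with a 1.5-fold change, and 6 or 7 with the other tests, scalings and filters. No member was lower under any of these. The log2 fold changes of the 10 members kept their sign in all of them. In the genes around the members, 28 were higher and 5 lower, and 21 were higher and 2 lower at the 1.5-fold cutoff; Srgn ranged from -0.22 to 0.023 when a tumor was left out, with the change of sign without vehicle 2. Relative to lymphocyte markers, the number higher was 0, between 0 and 2 when a tumor was left out, and 3 with Ptprc as the scale. The number lower was 2, between 0 and 4 when a tumor was left out, 1 with T cell markers only, 1 with NK cell markers only and 0 with Ptprc. Signs changed for Gzma (0.36 with Ptprc, 0.21 without vehicle 2, 0.028 without BI 3, 0.040 without BI 5, lowest -0.31 without BI 1). They also changed for Gzmk (-0.036 without BI 3, -0.049 in the exact permutation of log2 CPM minus the marker score), and with Ptprc for Gzmc (0.058), Gzmf (0.12) and Ifng (0.18). The highest value of Gzmk was 0.25 with a tumor left out (without BI 5) and 0.56 over all alternatives. The causes were not tested. No paired analysis was possible because the labels give no replicate numbers shared between the groups. With 3 vehicle tumors the exact permutation test cannot go below 0.0238. Gzmk had the fewest counts of the members, 384 over all tumors, and the largest SE.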
